A study of Mus musculus with 10 samples.

Results

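The 9 genes described here encode the P2 purinergic receptors P2rx1, P2rx4, P2rx7, P2ry1, P2ry2, P2ry10, P2ry12, P2ry13 and P2ry14. They were taken by gene symbol from an RNA-seq table of 23240 mouse genes. The RNA came from myeloid progenitors sorted from bone marrow of mice that all carried the Tg(vav-Cre) transgene, which drives Cre recombinase from vav regulatory sequences in blood-forming cells. Runx1-deleted mice were Runx1fl/fl, so that vav-Cre removes the floxed part of Runx1, a transcription factor of blood development, and wild-type mice were Runx1wt/wt. The gate for all cells was lin- sca- kit+ CD41- CD105-. XMP were CD16/32+ CD150+ and came from Runx1-deleted mice only. GMP (granulocyte-macrophage progenitors) were CD16/32+ CD150- and came from Runx1-deleted and wild-type mice, as did MEP (megakaryocyte-erythroid progenitors), which were CD16/32- CD150+. Each of the 5 groups held 2 libraries, and the labels do not say whether both came from different animals. The p-values of the fit below weigh differences against the spread between libraries of a group, pooled over all 5 groups. That spread may therefore be technical.

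P2 receptors sense nucleotides outside the cell. The P2X members are cation channels that open when ATP binds, and the P2Y members are G-protein-coupled receptors for ADP, ATP, UTP or nucleotide sugars. In blood, P2rx1, P2ry1 and P2ry12 are known as the nucleotide receptors of platelets, P2rx7 as the ATP channel that triggers the inflammasome in macrophages, P2ry2 as an ATP and UTP receptor of neutrophils and P2ry14 as a receptor for UDP-glucose on progenitors. P2ry10 belongs to the family by sequence and responds to lysophosphatidylserine.

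Promoter windows were read from RefSeq, build GRCm38.p6, and span 250 bases before to 50 bases after an annotated start; all 9 genes had at least 1, with 15 windows in all. The 4 printed next belong to P2rx1 and P2rx7, whose RNA was higher in Runx1-deleted than in wild-type GMP, and to P2rx4, which lies next to P2rx7 on chromosome 5 and was not called in that comparison. All 4 lie on the plus strand. Capitals mark the RUNX words TGTGGT and TGCGGT and the GATA words AGATAA and TGATAA on either strand; no RUNX word overlaps a GATA word here. A window without capitals holds none of these words.
P2rx1, chr11:72998895-72999194: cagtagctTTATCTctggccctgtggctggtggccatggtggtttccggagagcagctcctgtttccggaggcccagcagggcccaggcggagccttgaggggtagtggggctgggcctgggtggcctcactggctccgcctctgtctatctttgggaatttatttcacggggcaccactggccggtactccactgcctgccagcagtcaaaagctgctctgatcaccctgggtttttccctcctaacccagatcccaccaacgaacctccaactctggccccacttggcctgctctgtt
P2rx7 first start, chr5:122643677-122643976: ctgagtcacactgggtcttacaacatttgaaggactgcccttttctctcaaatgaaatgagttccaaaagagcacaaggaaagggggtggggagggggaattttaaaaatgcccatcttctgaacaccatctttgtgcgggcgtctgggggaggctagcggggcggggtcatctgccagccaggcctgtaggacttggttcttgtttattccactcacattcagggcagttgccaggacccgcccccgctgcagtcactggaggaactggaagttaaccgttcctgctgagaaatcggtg
P2rx7 second start, chr5:122650133-122650432: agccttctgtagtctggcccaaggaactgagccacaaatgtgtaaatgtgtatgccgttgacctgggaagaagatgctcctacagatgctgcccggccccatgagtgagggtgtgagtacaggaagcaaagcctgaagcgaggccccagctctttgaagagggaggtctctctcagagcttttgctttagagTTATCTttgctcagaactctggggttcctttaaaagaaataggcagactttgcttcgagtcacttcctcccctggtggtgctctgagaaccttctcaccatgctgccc
P2rx4, chr5:122707294-122707593: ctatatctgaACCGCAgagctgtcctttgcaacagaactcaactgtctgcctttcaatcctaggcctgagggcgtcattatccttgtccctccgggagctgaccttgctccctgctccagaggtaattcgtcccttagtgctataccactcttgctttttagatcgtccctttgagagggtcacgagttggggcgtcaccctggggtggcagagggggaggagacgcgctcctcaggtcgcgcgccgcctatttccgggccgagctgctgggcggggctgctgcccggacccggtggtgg
The P2rx1 window holds 1 GATA word, 242 bases before the start, and no RUNX word. The second P2rx7 window holds 1 GATA word, 58 bases before the start, and neither P2rx7 window holds a RUNX word. The P2rx4 window holds 1 RUNX word, 240 bases before the start. Among the other members, RUNX words stand in both windows of P2ry10 and in that of P2ry13, and the windows of P2ry1, P2ry2, P2ry12 and P2ry14 hold none. In all, 4 of the 15 windows hold a RUNX word and 7 hold a GATA word, against 22.4% and 18.6% of the 32851 promoter windows of the same length. Outside P2rx1 and P2rx7, the GATA words stand in both windows of P2ry10 and at starts 1, 2 and 4 of P2ry14. Windows of the same gene are not independent, and the counts were not tested against these shares. A match is a description of letters and not a binding site.

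Expression is given as RPKM, reads per kilobase of gene scaled to the read total of the library, as deposited by the authors. Read totals worked back from the RPKM steps ranged from 20.8 M to 54.9 M reads per library (M, mega). Runx1 itself was not lower in the deleted groups, at 78.5 and 85.9 RPKM in XMP, 63.0 and 72.3 in Runx1-deleted GMP, 26.9 and 28.5 in wild-type GMP, and in MEP 36.8 and 41.5 with Runx1 deleted and 17.2 and 25.5 in wild type; an RPKM over all exons cannot show whether a floxed part was lost. The summed level of 12 platelet markers was 1606 to 2022 RPKM in XMP, 141 to 171 in Runx1-deleted GMP, 44.5 to 57.2 in wild-type GMP, and in MEP 771 to 918 with Runx1 deleted and 824 to 906 in wild type. That of 10 neutrophil granule markers was 167 to 201 RPKM in XMP, 7647 to 7982 in Runx1-deleted GMP, 11797 to 11818 in wild-type GMP, and in MEP 46.5 to 51.2 with Runx1 deleted and 76.1 to 81.4 in wild type. In bulk RNA, fewer cells of a type and less RNA per cell cannot be told apart.

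Among the ADP receptors, P2ry1, a Gq-coupled receptor that starts platelet shape change, was the one with substantial RNA. It measured 39.5 and 30.2 RPKM in XMP, 1.78 and 2.93 in Runx1-deleted GMP, 2.42 and 1.99 in wild-type GMP, and in MEP 18.2 and 16.1 with Runx1 deleted and 11.9 and 19.97 in wild type. The XMP libraries lay above all others and the 4 GMP libraries below all others, while the Runx1-deleted and wild-type libraries of each gate overlapped. P2ry12, the Gi-coupled ADP receptor blocked by clopidogrel, had 6 reads in all 10 libraries together and no more than 2 in any; 5 libraries had 0 reads, which allows up to 0.0615 RPKM in the shallowest of them. P2ry13, another Gi-coupled ADP receptor, had 12 reads in all, at most 5 in a library and 0 reads in 5 libraries. At this depth neither gene could be compared between groups, although each P2ry1 library had at least 161 reads.

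Of the ATP-gated channels, P2rx1, the fast-desensitising channel of platelets, measured 33.03 and 31.3 RPKM in XMP, 19.7 and 21.6 in Runx1-deleted GMP, 9.88 and 6.96 in wild-type GMP, and in MEP 15.3 and 14.3 with Runx1 deleted and 10.6 and 12.8 in wild type. No group overlapped its neighbour in the order XMP, Runx1-deleted GMP, Runx1-deleted MEP, wild-type MEP, wild-type GMP; only the step between XMP and Runx1-deleted GMP passed the test, and the other 3 steps had adjusted p-values of 0.12 to 0.35. P2rx7, the channel that needs high ATP and leads to interleukin-1 release in macrophages, measured 0.736 and 0.749 RPKM in XMP, 5.86 and 6.98 in Runx1-deleted GMP, 2.87 and 2.18 in wild-type GMP, and in MEP 1.69 and 1.96 with Runx1 deleted and 0.494 and 0.559 in wild type. Both Runx1-deleted groups lay above the wild-type group of the same gate with no overlap, and XMP lay below both, near wild-type MEP. P2rx4, a channel found largely on lysosomes of macrophages, measured 9.35 and 12.02 RPKM in XMP, 19.2 and 20.8 in Runx1-deleted GMP, 25.6 and 21.9 in wild-type GMP, and in MEP 9.43 and 13.8 with Runx1 deleted and 14.5 and 15.4 in wild type. Its 5 group means spanned only 10.7 to 23.7 RPKM, and no step between neighbours in the order of group means passed the test.

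P2ry2, the receptor for ATP and UTP, measured 0.90 and 1.09 RPKM in XMP, 12.9 and 11.2 in Runx1-deleted GMP, 8.88 and 7.18 in wild-type GMP, and in MEP 1.24 and 1.58 with Runx1 deleted and 0.751 and 1.29 in wild type. All 4 GMP libraries stood above the other 6, and the groups outside GMP overlapped in the order of their means. P2ry14, the Gi-coupled receptor for UDP-glucose, measured 0.0532 and 0.0766 RPKM in XMP, 1.46 and 1.05 in Runx1-deleted GMP, 1.65 and 2.67 in wild-type GMP, and in MEP 0 and 0.0263 with Runx1 deleted and 0.199 and 0.147 in wild type. The 4 GMP libraries were the only ones above 1 RPKM. P2ry10 reached at most 0.950 RPKM, with 0.0845 and 0.0244 in XMP, 0.464 and 0.506 in Runx1-deleted GMP, 0.604 and 0.950 in wild-type GMP, and in MEP 0.0284 and 0.0334 with Runx1 deleted and 0.0680 and 0.117 in wild type. Its highest 4 libraries were again those of GMP, with 56 to 72 reads each. The split of reads between P2ry10 and its near copy A630033H20Rik (P2ry10b) is uncertain.

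**Figure D1:**
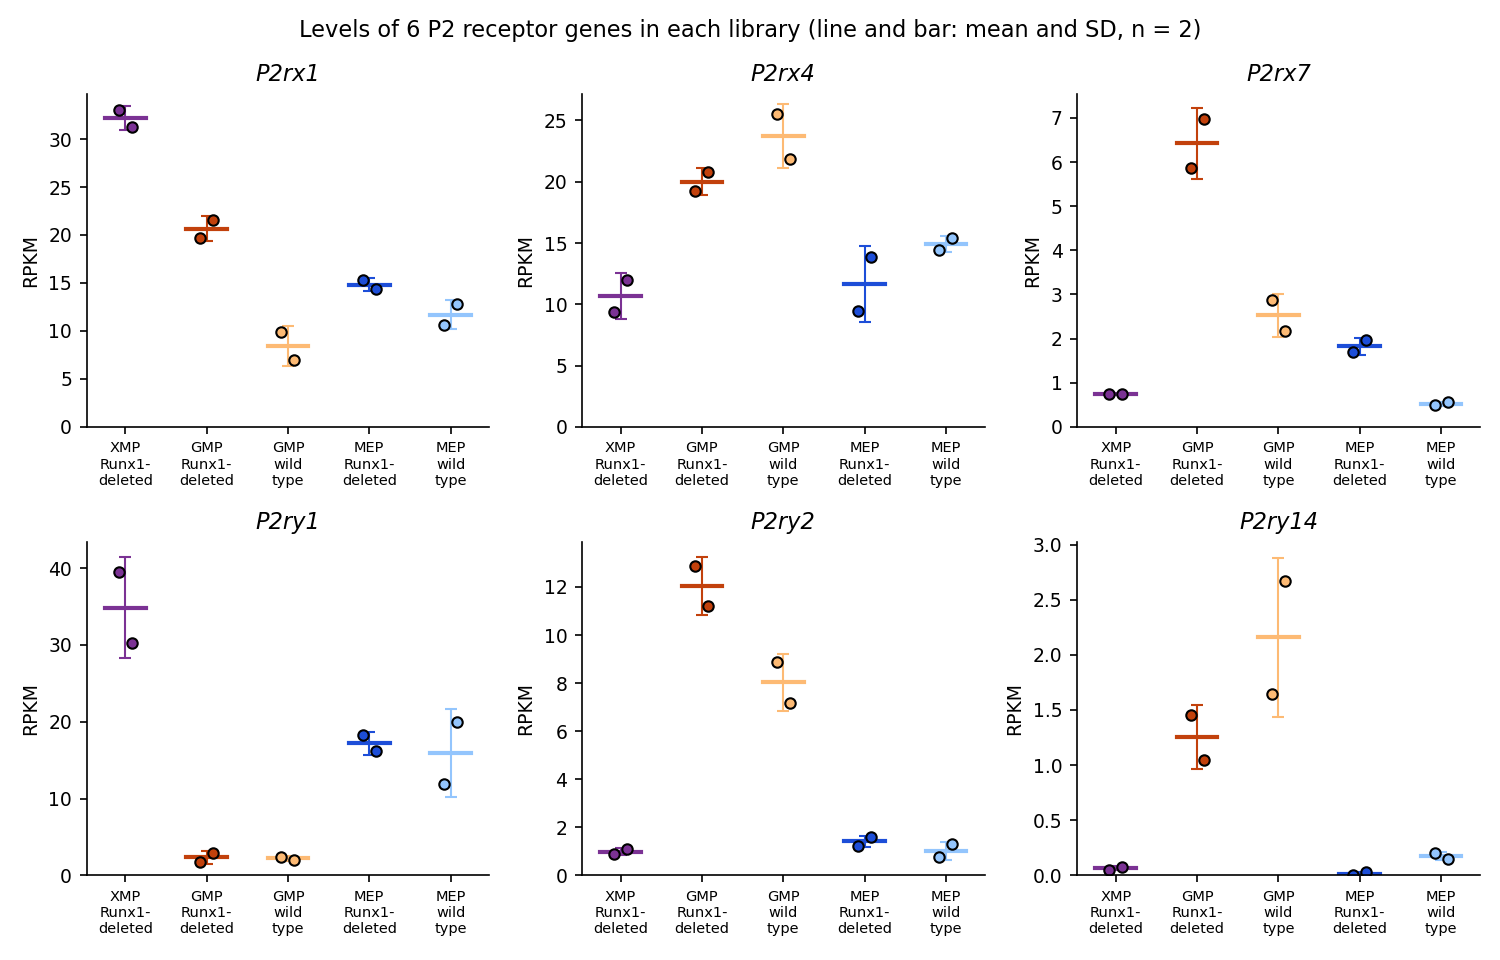
RPKM of 6 P2 receptor genes in each of the 10 libraries (points), with the mean (line) and SD (bar) of each group of 2; each panel has its own linear axis from 0. P2ry1 reached 39.5 RPKM in XMP and at most 2.93 in GMP, while P2ry2 and P2ry14 were highest in GMP and P2rx7 was highest in Runx1-deleted GMP.

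Differences were tested with limma on log2(RPKM + 1) over the 10905 genes that reached 1 RPKM in at least 2 libraries, and a gene was called at a Benjamini-Hochberg adjusted p under 0.05 over all of them. Folds are on this scale, which understates the change of low genes. Of the 9 members 6 were tested; P2ry10, P2ry12 and P2ry13 were not. P2ry14 passed the filter through its GMP libraries alone, so that its differences between GMP and the other gates follow from the filter and are given as values, and the member counts that include it support nothing.

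Deletion of Runx1 went with higher RNA of 2 ATP-gated channels in GMP. P2rx1 averaged 20.7 ± 1.33 RPKM in Runx1-deleted GMP and 8.42 ± 2.07 in wild-type GMP (SD, n = 2 each), a log2 fold change of 1.22 ± 0.19 (SE; limma adjusted p = 0.00306). P2rx7 averaged 6.42 ± 0.795 RPKM in Runx1-deleted GMP and 2.53 ± 0.489 in wild-type GMP (SD, n = 2 each), a log2 fold change of 1.08 ± 0.17 (limma adjusted p = 0.00299). These were the only calls among the 6 members tested, in a comparison in which 5.22% of all genes tested were called, 3.15% higher and 2.07% lower. P2ry2 (0.53 ± 0.20, limma adjusted p = 0.144) and P2ry14 (-0.47 ± 0.17, limma adjusted p = 0.137) did not pass, although their libraries did not overlap. P2rx4 (-0.23, limma adjusted p = 0.519) and P2ry1 (0.05, limma adjusted p = 0.925) did not pass either. In the authors' deposited table the FDR-corrected p-value was 0.0249 for P2rx1 and 0.719 for P2rx7.

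The Runx1-deleted GMP libraries were both sequenced on lane 5 and the wild-type GMP libraries on lanes 3 and 2, so that no comparison within a lane exists and lane and genotype cannot be told apart in GMP. With lane as a term, which leaves wild-type GMP replicate 1 adjusted through the pair of wild-type MEP libraries, P2rx1 was 0.75 ± 0.24 (limma adjusted p = 0.211) and P2rx7 0.87 ± 0.25 (limma adjusted p = 0.171). Platelet markers moved in the same direction as P2rx1: their sum was 141 to 171 RPKM in Runx1-deleted GMP and 44.5 to 57.2 in wild-type GMP. Of these 12 markers 5 were called higher and none lower (median log2 fold change 1.011, against 0.05 over all genes tested). None was under 0.1 RPKM in both libraries of either group. The sum of 10 erythroid markers was 335 to 567 RPKM in Runx1-deleted GMP and 57.9 to 89.6 in wild-type GMP. In wild-type GMP Slc4a1 was under 0.1 RPKM in both libraries, and Rhag averaged 0.0838 RPKM. Of the 10 markers 4 were called higher and 1 lower (median 0.37). Most of the erythroid sum was globin RNA, with the beta globin Beta-s at 229 and 376 RPKM in Runx1-deleted GMP and 31.2 and 51.3 in wild-type GMP. The marker called lower was Car1, a carbonic anhydrase of early erythroid cells, at 0.496 and 1.67 RPKM in Runx1-deleted GMP and 7.62 and 10.6 in wild-type GMP (limma adjusted p = 0.00559). Klf1, the erythroid transcription factor, was not called, at 1.60 and 2.62 RPKM in Runx1-deleted GMP and 5.53 and 3.41 in wild-type GMP. Slc4a1, among the erythroid markers called higher, measured 2.07 and 1.82 RPKM in Runx1-deleted GMP and 0.0717 and 0.0527 in wild-type GMP. It passed the filter through Runx1-deleted libraries alone. This difference follows from the filter, and the count of erythroid markers called higher, which includes it, supports nothing. The sum of 10 mast cell and basophil markers was 341 to 377 RPKM in Runx1-deleted GMP and 702 to 766 in wild-type GMP. Of the 8 of them tested 5 were called lower, and Mcpt4 was under 0.1 RPKM in Runx1-deleted GMP. Gzmb and Prss34, among these 5, passed the filter through wild-type libraries alone. Their differences follow from the filter, so this count supports nothing. Of the neutrophil granule markers 2 of the 9 tested were called lower and none higher, and of the monocyte and macrophage markers 1 of the 8 tested was called in each direction. The part of these lists in the P2rx1 and P2rx7 differences was not tested.

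In MEP the loss of Runx1 went with higher P2rx7 and no other call among the 6 members tested, where 8% of all genes tested were called, 3.97% higher and 4.03% lower. P2rx7 averaged 1.82 ± 0.191 RPKM in Runx1-deleted MEP and 0.527 ± 0.0461 in wild-type MEP (SD, n = 2 each), a log2 fold change of 0.89 ± 0.17 (limma adjusted p = 0.00857). With a pseudocount of 0.1 in place of 1 the same difference was 1.62 ± 0.26. Among lane 5 libraries alone, with 2 Runx1-deleted and 1 wild-type MEP library, it was 0.85 ± 0.16 (limma adjusted p = 0.0361), and without Runx1-deleted MEP replicate 2 it was 0.82 ± 0.22 and no longer called (limma adjusted p = 0.0908). P2rx1 averaged 14.8 ± 0.700 RPKM in Runx1-deleted MEP and 11.7 ± 1.51 in wild-type MEP (SD, n = 2 each), which did not pass (0.32 ± 0.19, limma adjusted p = 0.35). The authors' deposited table gives an FDR-corrected p-value of 1 for both genes in this comparison. Platelet and erythroid markers were called higher together with P2rx7, although their sums were not higher. Of 12 platelet markers 6 were called higher and none lower (median log2 fold change 1.11, against 0.03 over all genes tested), with a sum of 771 to 918 RPKM in Runx1-deleted MEP and 824 to 906 in wild-type MEP. Clec1b, a receptor of platelets, measured 42.6 and 35.1 RPKM in Runx1-deleted MEP and 3.92 and 3.99 in wild-type MEP (limma adjusted p = 8.01e-05). Of 10 erythroid markers 6 were called higher and none lower (median 0.92), with a sum of 919 to 954 RPKM in Runx1-deleted MEP and 1106 to 1150 in wild-type MEP, most of it Car1 in wild-type MEP. Rhag, a membrane protein of red cells, measured 32.5 and 28.2 RPKM in Runx1-deleted MEP and 4.02 and 5.52 in wild-type MEP (limma adjusted p = 7.21e-05). No platelet or erythroid marker was under 0.1 RPKM in both libraries of either group. Monocyte and macrophage markers summed to 6.50 to 7.81 in Runx1-deleted MEP and 13.4 to 15.7 in wild-type MEP, with 2 of the 8 tested called lower, and Cx3cr1 averaged under 0.1 RPKM in both groups. Of the mast cell and basophil markers 3 of the 8 tested were called lower. That count includes Prss34, which passed the filter through wild-type libraries alone, so it supports nothing. The part of these lists in the P2rx7 difference was not tested.

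The effect of Runx1 deletion in GMP minus that in MEP was called for none of the 6 members tested by limma, where 1.74% of all genes tested were called, 0.954% higher and 0.789% lower; at an unadjusted p under 0.05 there was 1, P2rx1, against 1096 of the 10905 genes tested. Its effect was larger in GMP by 0.89 ± 0.27 (limma adjusted p = 0.172). That call was made when a trend with gene length was removed (0.86, limma adjusted p = 0.0332) and after quantile normalization (0.90, limma adjusted p = 0.0464). For P2rx7 the effects differed by 0.19 ± 0.24 (limma adjusted p = 0.999).

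**Figure D2:**
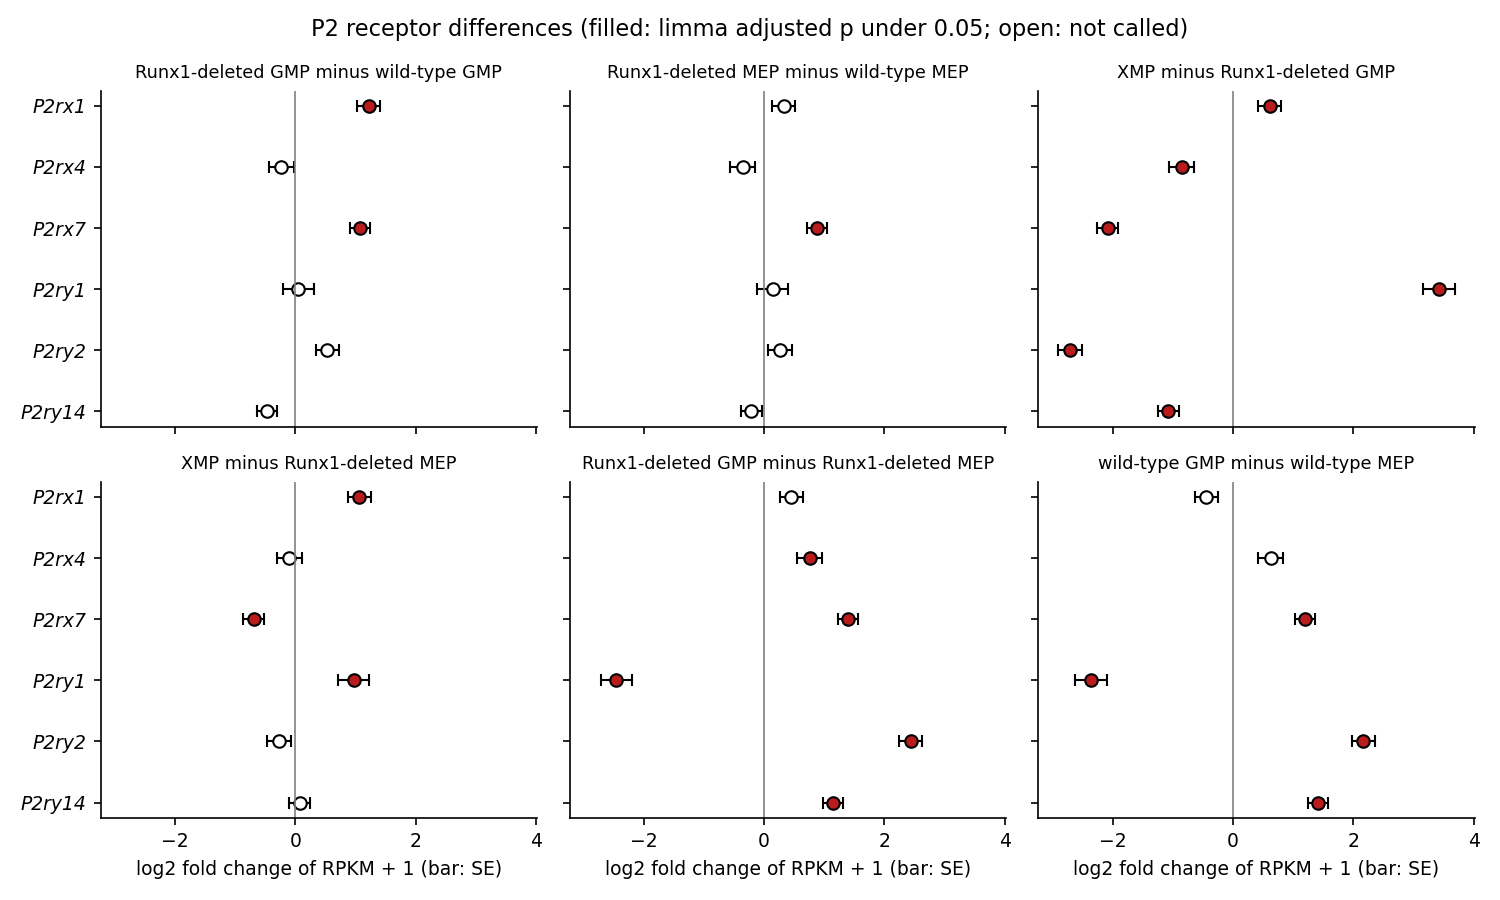
Log2 fold change of RPKM + 1 for the 6 members tested (points, bars are SE) in 6 comparisons; filled points have a limma adjusted p under 0.05. P2rx7 was called higher in Runx1-deleted cells of both gates and P2rx1 in GMP, and P2ry1 and P2ry2 ran in opposite directions between XMP and Runx1-deleted GMP. P2ry14 passed the filter through its GMP libraries alone, so its filled points between GMP and other gates follow from the filter.

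**Figure D3:**
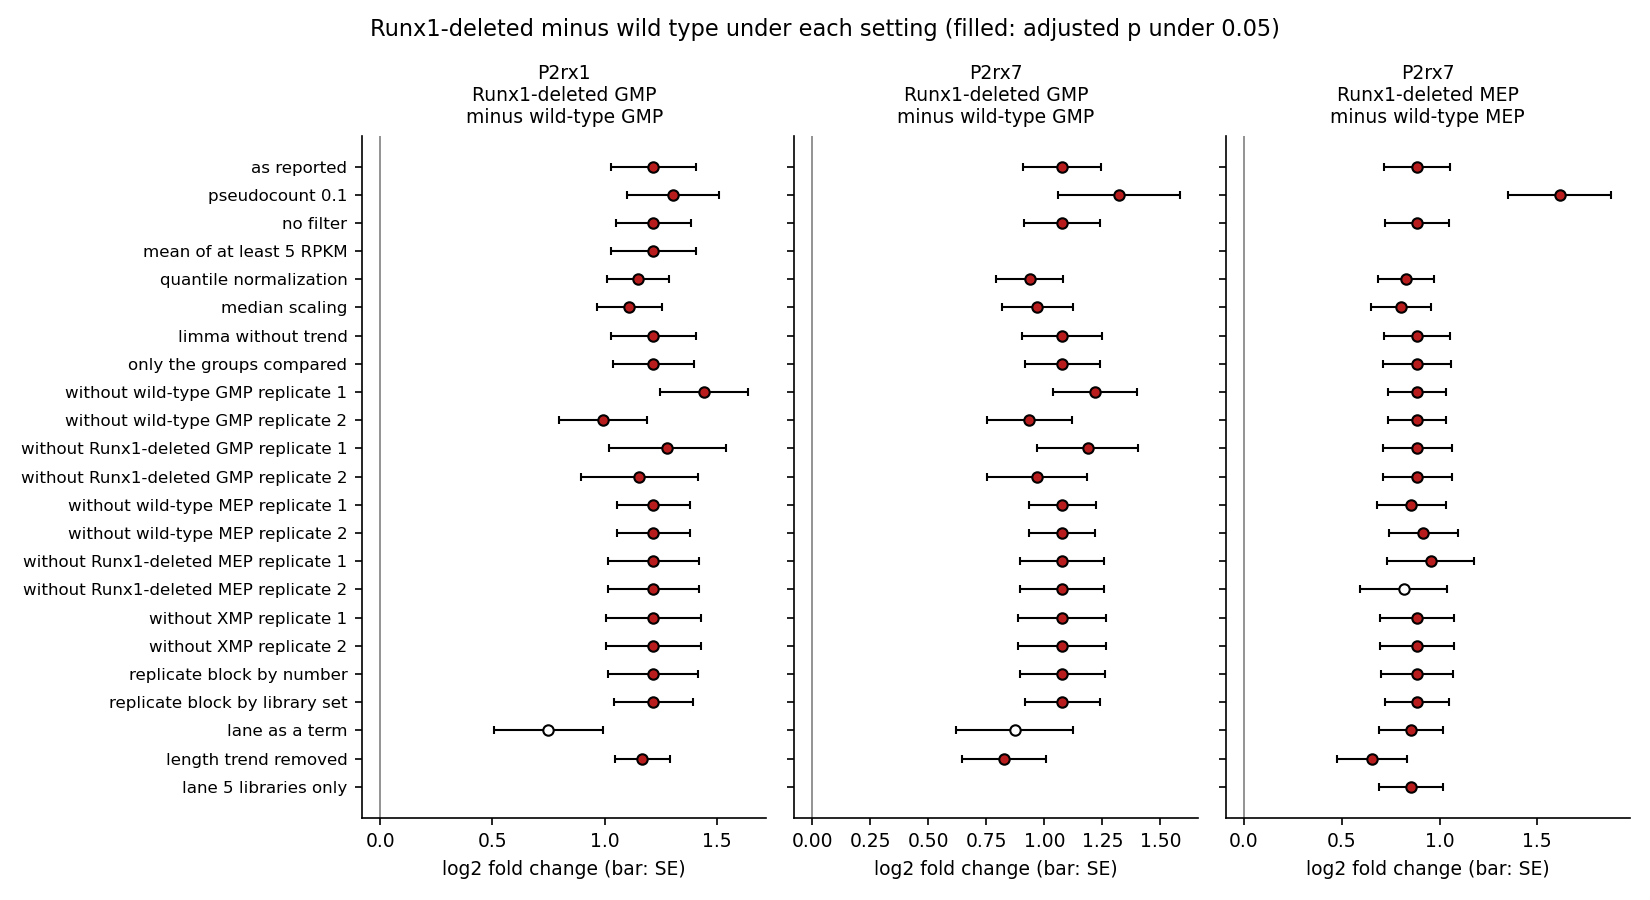
Log2 fold change (points, bars are SE) of P2rx1 and P2rx7 in Runx1-deleted minus wild-type cells as reported and under each alternative setting; open points were not called, and P2rx7 was not tested with a mean of at least 5 RPKM. The value stayed above 0 in every setting drawn, and the calls were lost with lane as a term in GMP and without Runx1-deleted MEP replicate 2 in MEP.

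XMP differed from Runx1-deleted GMP of the same genotype by more P2ry1 and P2rx1 and less P2ry2, P2rx7 and P2rx4. P2ry1 averaged 34.9 ± 6.55 RPKM in XMP and 2.36 ± 0.816 in Runx1-deleted GMP (SD, n = 2 each), a log2 fold change of 3.43 ± 0.26 (limma adjusted p = 3.33e-06). P2rx1 was higher by 0.61 ± 0.19 (limma adjusted p = 0.0431). P2ry2 averaged 0.993 ± 0.132 RPKM in XMP and 12.04 ± 1.197 in Runx1-deleted GMP (SD, n = 2 each), a log2 fold change of -2.71 ± 0.20 (limma adjusted p = 2.34e-06). P2rx7 averaged 0.742 ± 0.00937 RPKM in XMP and 6.42 ± 0.795 in Runx1-deleted GMP (SD, n = 2 each), a log2 fold change of -2.09 ± 0.17 (limma adjusted p = 4.59e-06). P2rx4 was lower by a log2 fold change of -0.85 ± 0.21 (limma adjusted p = 0.012), and for P2ry14 the value was -1.08 ± 0.17. In this comparison 19.7% of all genes tested were called, 9.75% higher and 9.9% lower.

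On lane 5 alone, 1 XMP and 2 Runx1-deleted GMP libraries remained. There P2ry1 was 3.61, P2rx1 0.65, P2ry2 -2.78, P2rx7 -2.09 and P2rx4 -1.02. The value for P2ry14 was -1.09, a difference that follows from the filter. P2rx1 lost its call without either Runx1-deleted GMP library, either XMP library or either Runx1-deleted MEP library (0.55 to 0.68, limma adjusted p = 0.061 to 0.274) and with a pseudocount of 0.1 or no filter (limma adjusted p = 0.052 and 0.0601), and P2rx4 lost it without either Runx1-deleted GMP library or XMP replicate 1 (-0.91 to -0.69, limma adjusted p = 0.0633 to 0.125). In the authors' deposited table the FDR-corrected p-value was 6.29e-12 for P2ry1, 0.000824 for P2ry2, 0.0748 for P2rx7, 0.252 for P2rx1 and 0.455 for P2rx4. All 12 platelet markers were called higher in XMP, as P2ry1 was, with a sum of 1606 to 2022 RPKM in XMP against 141 to 171 in Runx1-deleted GMP. Of the neutrophil granule markers 8 of the 9 tested were called lower, with a sum of 167 to 201 RPKM in XMP against 7647 to 7982 in Runx1-deleted GMP. Fcnb averaged under 0.1 RPKM in XMP and passed the filter through its GMP libraries alone. Its difference follows from the filter, and a count that includes it supports nothing. Of the monocyte and macrophage markers 7 of the 8 tested were called lower, with a sum of 20.4 to 34.6 RPKM in XMP against 465 to 572.5 in Runx1-deleted GMP, and of 10 erythroid markers 8 were called higher. The part of these lists in the receptor differences was not tested.

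Against Runx1-deleted MEP, XMP held more P2rx1 and P2ry1 and less P2rx7, where 7.74% of all genes tested were called, 5.14% higher and 2.6% lower. P2rx1 averaged 32.1 ± 1.25 RPKM in XMP and 14.8 ± 0.700 in Runx1-deleted MEP (SD, n = 2 each), a log2 fold change of 1.07 ± 0.19 (limma adjusted p = 0.00662). P2ry1 averaged 34.9 ± 6.55 RPKM in XMP and 17.2 ± 1.49 in Runx1-deleted MEP (SD, n = 2 each), a log2 fold change of 0.97 ± 0.26 (limma adjusted p = 0.0476). P2rx7 was lower by a log2 fold change of -0.69 ± 0.17 (limma adjusted p = 0.0285). P2rx4 (-0.10), P2ry2 (-0.27) and P2ry14 (0.07) did not pass, with limma adjusted p-values of 0.526 to 0.89.

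P2rx1 was not called without Runx1-deleted MEP replicate 2 (1.02, limma adjusted p = 0.0526) or XMP replicate 1 (1.03, limma adjusted p = 0.0647). P2ry1 was not called when any 1 of the 4 GMP, 2 Runx1-deleted MEP or 2 XMP libraries was left out (0.78 to 1.16, limma adjusted p = 0.0605 to 0.301), and P2rx7 was not called without either Runx1-deleted MEP library or either XMP library (-0.76 to -0.63, limma adjusted p = 0.103 to 0.17). Without a filter P2ry1 (limma adjusted p = 0.135) and P2rx7 (limma adjusted p = 0.0801) were not called. On lane 5 alone P2rx1 was 1.10 (limma adjusted p = 0.0164), P2ry1 1.16 (limma adjusted p = 0.035) and P2rx7 -0.70 (limma adjusted p = 0.0546). The authors' deposited table gives FDR-corrected p-values of 0.00751 for P2rx1, 0.0103 for P2ry1 and 1 for P2rx7. The platelet marker sum was 1606 to 2022 RPKM in XMP and 771 to 918 in Runx1-deleted MEP, with 5 of 12 called higher and none lower. Monocyte and macrophage markers were called higher where P2rx7 was called lower, 6 of the 8 tested (median log2 fold change 0.99, against 0.05 over all genes tested), with a sum of 20.4 to 34.6 RPKM in XMP and 6.50 to 7.81 in Runx1-deleted MEP; Cx3cr1 averaged under 0.1 RPKM in both groups. Of the neutrophil granule markers 5 of the 9 tested were called higher (median 1.18), with a sum of 167 to 201 RPKM in XMP and 46.5 to 51.2 in Runx1-deleted MEP, and Fcnb averaged under 0.1 RPKM in both. Of 10 erythroid markers 3 were called higher and 6 lower (median -1.32), with a sum of 696 to 1363 RPKM in XMP and 919 to 954 in Runx1-deleted MEP. The part of these lists in the P2rx1, P2ry1 and P2rx7 differences was not tested.

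P2ry2 and P2rx7 were higher and P2ry1 was lower in GMP than in MEP in both genotypes. In Runx1-deleted mice, GMP minus MEP was 2.44 ± 0.20 for P2ry2 (limma adjusted p = 3.61e-06), 1.39 ± 0.17 for P2rx7 (limma adjusted p = 7.88e-05), 0.76 ± 0.21 for P2rx4 (limma adjusted p = 0.0197) and -2.46 ± 0.26 for P2ry1 (limma adjusted p = 3.25e-05) on the log2 scale. The value for P2ry14 was 1.15 ± 0.17, and P2rx1 did not pass (0.45 ± 0.19, limma adjusted p = 0.12). All 4 libraries of this comparison were on lane 5; with lane 5 libraries alone P2rx1 was also called (0.45, limma adjusted p = 0.0409). The call of P2rx4 was lost without either Runx1-deleted GMP library or Runx1-deleted MEP replicate 1 (0.50 to 0.81, limma adjusted p = 0.0847 to 0.186). Of all genes tested 24.5% were called, 14.1% higher and 10.4% lower in GMP. Of the marker lists, all 12 platelet and 6 of 10 erythroid markers were called lower in Runx1-deleted GMP than in Runx1-deleted MEP, and 7 of the 9 neutrophil granule and 7 of the 8 monocyte and macrophage markers tested were called higher, as was 1 erythroid marker. In wild type 10 platelet and 6 erythroid markers were called lower in GMP than in MEP, and 7 neutrophil granule and 7 monocyte and macrophage markers higher. Fcnb, a neutrophil granule marker, passed the filter through its GMP libraries alone, so counts that include it support nothing in either genotype. The part of these lists in the receptor differences was not tested.

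In wild-type mice, GMP minus MEP was 2.17 ± 0.20 for P2ry2 (limma adjusted p = 1.07e-05), 1.2 ± 0.17 for P2rx7 (limma adjusted p = 0.000295) and -2.37 ± 0.26 for P2ry1 (limma adjusted p = 5.04e-05), where 21.6% of all genes tested were called, 11.7% higher and 9.83% lower in GMP. P2ry14 had a value of 1.41 ± 0.17. P2rx4 (0.63 ± 0.21, limma adjusted p = 0.0514) and P2rx1 (-0.44 ± 0.19, limma adjusted p = 0.136) did not pass, and both were called once a trend with gene length was removed (0.64, limma adjusted p = 0.0397, and -0.44, limma adjusted p = 0.0207). The wild-type GMP libraries were on lanes 3 and 2 and the wild-type MEP libraries on lanes 3 and 5. Lane 3 held 1 library of each gate, in which P2ry1 measured 2.42 RPKM in GMP and 11.9 in MEP, P2ry2 8.88 in GMP and 0.751 in MEP, and P2rx7 2.87 in GMP and 0.494 in MEP; with 1 library each there is no test. The authors' deposited table has FDR-corrected p-values of 0.039 for P2ry2, 0.243 for P2ry1 and 1 for P2rx7.

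The make-up of the P2 transcripts is given as a description. The RPKM of the 9 members summed to 83.7 and 75.5 in XMP, 61.5 and 65.1 in Runx1-deleted GMP, 51.9 and 43.8 in wild-type GMP, and in MEP 46.0 and 47.9 with Runx1 deleted and 38.5 and 50.2 in wild type. P2ry1 made up 47.2% and 40.1% of that sum in XMP and P2rx1 39.5% and 41.4%. P2rx4 made up 31.3% and 31.9% in Runx1-deleted GMP and 49.2% and 49.95% in wild-type GMP, whereas P2rx1 made up 32.1% and 33.2% in Runx1-deleted GMP and 19.0% and 15.9% in wild-type GMP. P2rx7 made up 9.53% and 10.7% in Runx1-deleted GMP, 5.53% and 4.98% in wild-type GMP and under 5% in each library of the other groups. P2ry2 held 20.97% and 17.2% in Runx1-deleted GMP, 17.1% and 16.4% in wild-type GMP and at most 3.31% in MEP and XMP libraries.

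**Figure D4:**
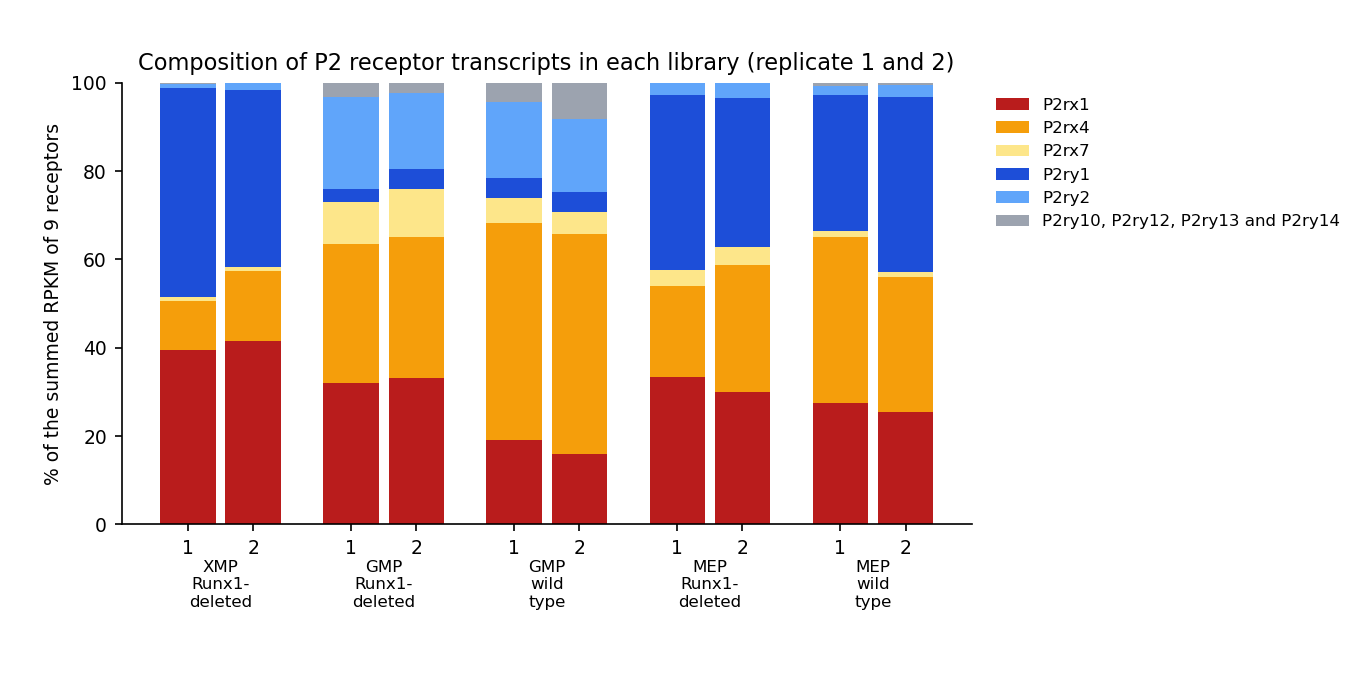
Percent of the summed RPKM of the 9 P2 receptor genes held by each gene, in replicates 1 and 2 of each group. P2rx1 and P2ry1 filled most of the XMP bars, and P2rx4 took about as much of the Runx1-deleted GMP bars as P2rx1, against 49.2% and 49.95% in wild-type GMP.

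P2ry14, P2ry13 and P2ry12 lie in this order on chromosome 3 within the gene Med12l, which encodes a Mediator subunit, together with Gpr171, by RefSeq. Whether the authors counted by strand is not given in the sources used here, so reads of the overlapping genes cannot be told apart with certainty. Med12l measured 14.3 and 18.9 RPKM in XMP, 1.28 and 0.925 in Runx1-deleted GMP, 0.495 and 0.393 in wild-type GMP, and in MEP 5.71 and 6.35 with Runx1 deleted and 2.66 and 8.01 in wild type. It was highest in XMP, where P2ry14 was at or under 0.0766 RPKM. Gpr171 measured 0.0537 and 0.0722 RPKM in XMP, 1.32 and 1.44 in Runx1-deleted GMP, 0.668 and 4.84 in wild-type GMP, and in MEP 0 and 0.0120 with Runx1 deleted and 0.228 and 0.235 in wild type. Like P2ry14 it was highest in GMP libraries.

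Genes whose log2(RPKM + 1) most resembled each member over the 10 libraries are named for the 5 members that reached a group mean of 5 RPKM, with Pearson's r as a description, since all 10 points share the gate differences. P2ry1 was closest to Slc2a3, a glucose transporter (r = 0.994), Fam110c (0.993) and Sdpr (0.991). P2ry2 was closest to Gbp3 (0.992), Fndc3b (0.990) and Itgam, an integrin of myeloid cells (0.990). P2rx1 was closest to Gpr137b-ps (0.987), Lcp2, an adaptor of immune and platelet receptors (0.973), and Slc4a1, the anion exchanger of red cells (0.971). P2rx7 was closest to 9030617O03Rik (0.974), the phosphatase gene Ptpn6 (0.966) and Evi5 (0.956), and P2rx4 to Haao (0.974), Tgif1 (0.971) and Dnase2a (0.965). Slc4a1 measured 4.50 and 4.18 RPKM in XMP, 2.07 and 1.82 in Runx1-deleted GMP, 0.0717 and 0.0527 in wild-type GMP, and in MEP 0.865 and 1.002 with Runx1 deleted and 0.0604 and 0.324 in wild type.

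The remaining P2 receptors of the table were close to silent. P2rx2, P2rx3, P2rx5, P2rx6, P2ry4, P2ry6, A630033H20Rik and Gpr17 reached at most 0.752 RPKM in any library, for P2rx3 in Runx1-deleted GMP, and Gpr17 was listed at 0 throughout. None of the 8 passed the filter.

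Signalling genes downstream of the receptors were tested as a list of 37, of which 35 passed the filter. In GMP 3 were called higher with Runx1 deleted and 1 lower (median log2 fold change 0.23, against 0.05 over all genes tested, of which 5.22% were called). Gnb4, a G protein beta subunit, measured 25.5 and 21.4 RPKM in Runx1-deleted GMP and 7.54 and 6.10 in wild-type GMP (limma adjusted p = 0.000697). Gng11, a gamma subunit of platelets, measured 20.9 and 22.2 RPKM in Runx1-deleted GMP and 5.25 and 7.34 in wild-type GMP (limma adjusted p = 0.00253). Gna15, a Gq-class alpha subunit of blood cells, was lower at 14.2 and 18.8 RPKM in Runx1-deleted GMP against 35.2 and 26.2 in wild-type GMP (limma adjusted p = 0.0354). In MEP 7 of the 35 were called higher and 2 lower with Runx1 deleted, where 3.97% of all genes tested were called higher and 4.03% lower (median 0.11, against 0.03 over all genes tested). Arrb1, an arrestin that ends receptor signals, measured 63.1 and 63.0 RPKM in Runx1-deleted MEP and 21.9 and 34.9 in wild-type MEP (limma adjusted p = 0.00518), and Rgs18, a regulator of G protein signalling in platelets, 46.8 and 44.3 in Runx1-deleted MEP and 64.5 and 87.4 in wild-type MEP (limma adjusted p = 0.045). Between XMP and Runx1-deleted GMP 10 of the 35 were called higher and 5 lower, where 9.75% of all genes tested were called higher and 9.9% lower (median 0.35, against 0.05 over all genes tested). Rap1b, the small GTPase that leads to integrin activation in platelets, measured 564 and 414 RPKM in XMP and 78.8 and 83.8 in Runx1-deleted GMP (limma adjusted p = 7e-06). Pik3r5 encodes a regulatory subunit of the kinase that P2Y receptors reach through beta-gamma subunits. It measured 1.07 and 0.868 RPKM in XMP and 4.59 and 5.54 in Runx1-deleted GMP. Pik3r5 and Pik3r6 passed the filter only by way of their GMP libraries, so their differences follow from the filter. The count of 5 lower includes both and supports nothing. Against Runx1-deleted MEP 7 were called higher in XMP and none lower, where 5.14% of all genes tested were called higher and 2.6% lower (median 0.25).

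Of 11 genes that act with P2rx7 at the inflammasome, 9 passed the filter. In GMP 1 of the 9 was called higher and none lower, where 3.15% of all genes tested were called higher and 2.07% lower. It was Casp4, an inflammatory caspase, at 13.7 and 10.5 RPKM in Runx1-deleted GMP against 5.85 and 5.12 in wild-type GMP (limma adjusted p = 0.0312). In MEP 2 of the 9 were called lower and none higher, where 4.03% of all genes tested were called lower. That count includes Il1b, the cytokine released after P2rx7 opens, which passed the filter through its wild-type MEP libraries alone. Its difference follows from the filter, so the count supports nothing. Il1b measured 0.0605 and 0.0712 RPKM in Runx1-deleted MEP and 2.24 and 1.58 in wild-type MEP. Casp1, which cuts it, measured 4.28 and 4.54 in Runx1-deleted MEP and 7.21 and 10.7 in wild-type MEP (limma adjusted p = 0.034). P2rx7 was higher where Casp1 was lower. Between XMP and Runx1-deleted GMP 5 of the 9 were called lower and 1 higher, where 9.9% of all genes tested were called lower and 9.75% higher (median -0.53). Casp1 measured 8.54 and 7.95 RPKM in XMP and 32.8 and 36.7 in Runx1-deleted GMP (limma adjusted p = 5.43e-05), and P2rx7 was lower there too.

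Enzymes that break down nucleotides and adenosine formed a list of 18, of which 11 passed the filter. With Runx1 deleted 1 was called higher and none lower in GMP, and 1 higher and 2 lower in MEP, where 5.22% of all genes tested were called in GMP and 8% in MEP. Enpp1, 1 of the 2 called lower, passed the filter through wild-type libraries alone. Its difference follows from the filter, so the count of lower calls in MEP supports nothing. Entpd4, a nucleotidase of the Golgi and lysosome, measured 34.4 and 32.5 RPKM in Runx1-deleted GMP and 21.9 and 17.3 in wild-type GMP (limma adjusted p = 0.0423), and 27.9 and 30.4 in Runx1-deleted MEP and 15.6 and 20.02 in wild-type MEP (limma adjusted p = 0.0452). Entpd1 (CD39), which removes ATP and ADP at the cell surface, measured 0.336 and 0.399 RPKM in XMP and 2.42 and 1.90 in Runx1-deleted GMP. It passed the filter through GMP libraries alone, so this difference follows from the filter. Of 12 genes for nucleotide release 9 passed. With Runx1 deleted 1 was called lower in GMP, and 1 higher and 1 lower in MEP, against 5.22% and 8% of all genes tested. Gja1 (connexin 43), called lower in both, passed the filter through its wild-type libraries alone. Its differences follow from the filter, and the counts that include it support nothing. Gja1 measured 0.598 and 0.230 RPKM in Runx1-deleted GMP and 3.18 and 3.54 in wild-type GMP. In MEP it measured 0.371 and 0.434 with Runx1 deleted and 7.24 and 14.01 in wild type. Lrrc8c was called higher, at 32.5 and 31.7 RPKM in Runx1-deleted MEP and 11.3 and 21.8 in wild-type MEP (limma adjusted p = 0.0414). Of 10 adenosine receptors and carriers 5 passed. Adora2a, the Gs-coupled adenosine receptor, measured 17.7 and 16.6 RPKM in XMP, 6.91 and 6.67 in Runx1-deleted GMP, 4.30 and 3.41 in wild-type GMP, and in MEP 5.96 and 5.81 with Runx1 deleted and 6.20 and 5.68 in wild type. It was called higher in XMP than in Runx1-deleted GMP (limma adjusted p = 0.000373) and MEP (limma adjusted p = 0.0011) and in Runx1-deleted than in wild-type GMP (limma adjusted p = 0.0463).

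Receptors for lysophospholipids, thrombin and related ligands formed a list of 21, of which 12 passed the filter. In GMP 2 of the 12 were called higher with Runx1 deleted, where 3.15% of all genes tested were called higher. F2r, the thrombin receptor PAR1, measured 34.2 and 38.4 RPKM in Runx1-deleted GMP and 3.70 and 3.29 in wild-type GMP (limma adjusted p = 2.74e-06), and 325 and 306 in XMP. Ptafr, the receptor for platelet-activating factor, measured 2.91 and 3.32 RPKM in Runx1-deleted GMP and 1.03 and 0.685 in wild-type GMP. It passed the filter only by way of its Runx1-deleted GMP libraries, so its differences from that group follow from the filter. Counts of this list that include Ptafr, here and for XMP minus Runx1-deleted GMP, support nothing. In MEP 1 of the 12 was called lower and none higher, where 4.03% of all genes tested were called lower and 3.97% higher. It was Tbxa2r, the thromboxane receptor of platelets, at 3.88 and 2.65 RPKM in Runx1-deleted MEP against 7.72 and 7.65 in wild-type MEP (limma adjusted p = 0.0218). Between XMP and Runx1-deleted GMP 6 of the 12 were called higher and 2 lower, where 9.75% of all genes tested were called higher and 9.9% lower (median 0.64, against 0.05 over all genes tested).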

How the data were processed

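RNA-seq values of 10 libraries in 5 groups of 2 were deposited by the authors as RPKM per gene, together with p-values of Baggerley's test and their FDR correction, per the file headers. The submitters' processing notes name the mouse build mm9; for the aligner, the counting and its use of strand no source used here gives an answer. Libraries were made with a TruSeq V2 or a NEBNext Ultra kit, per the labels' protocols, which do not say which library had which. Lane numbers come from the labels. All 10 RPKM columns were used, and 0 columns of samples were left unmapped.

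Read totals and whole reads were worked back from the RPKM steps: 19330 of 23240 genes gave whole reads within 0.01 read, 6 did not and 3904 were 0 throughout, and the recovery and the fit were tested on simulated data. Limits from low reads cover counting error only. Differences were fitted with limma 3.58.1 in R 4.3.3 (eBayes with an intensity trend) on log2(RPKM + 1), 1 mean per group over all 10 libraries. The fit took the genes that 2 or more libraries held at 1 RPKM or above, with Benjamini-Hochberg adjustment. Sequences and gene neighbours came from RefSeq (GRCm38.p6), which is not the build of the files, so no gene coordinates are paired with expression. Tables and figures were made with Python 3.11.15, pandas 2.3.3 and matplotlib 3.10.9.

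The members, gene lists and tests were chosen with earlier results of these data known. Named were all 9 members; of each pathway list, in each comparison, up to 2 called genes in each direction with the smallest p, from which examples are printed; and for each member with a group mean of at least 5 RPKM the 3 genes with the highest correlation. No protein sequence was used here, and the values of some list genes are not reported here. Alternatives were another pseudocount, other filters, quantile and median scaling, limma without trend, only the groups compared, each library left out, replicate blocks, lane and gene length.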

Additional observations from a re-analysis of the deposited data

How the results depend on the processing

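Each member value was refitted under 13 alternatives, with 10 fits that each left out 1 library, which gave 885 values. Of these 806 kept their direction and their side of the threshold, 39 lost a call, 18 gained one and 22 turned sign; every value that turned sign came from a difference not called in the first place (adjusted p of 0.778 or more). Where an alternative drops members from the test, fewer calls follow: with a mean of at least 5 RPKM only P2rx1, P2rx4 and P2ry1 were tested, and the calls were 1 in place of 2 for Runx1-deleted minus wild-type GMP, 0 in place of 1 for MEP, 3 in place of 6 for XMP minus Runx1-deleted GMP, 2 in place of 5 for Runx1-deleted GMP minus MEP and 1 in place of 4 for wild-type GMP minus MEP. The counts of 6, 5 and 4 include P2ry14, so the changes from them support nothing. Over all genes this filter gave 196, 412, 1200, 1579 and 1380 calls of 7788, in the same order. With lane as a term the calls for Runx1-deleted minus wild-type GMP were 0, where 64 of 10905 genes tested were called. Without a filter those for XMP minus Runx1-deleted MEP were 1 in place of 3, where 620 of 19336 genes were called. The difference between the effects in GMP and MEP had 1 call in place of 0 after quantile normalization (273 of 10905 genes called) or removal of the length trend (352 of 10905). The cause was not tested. With 1 library left out, calls ranged from 0 to 1 for Runx1-deleted minus wild-type MEP and from 0 to 3 for XMP minus Runx1-deleted MEP; the lone library of a group is then assumed to vary like the others.

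For P2ry1, Runx1-deleted minus wild-type GMP was -0.13 after quantile normalization, -0.057 with median scaling, -0.75 with lane as a term and -0.12 with the length trend removed, and ran from -0.20 to 0.30 with 1 library left out; Runx1-deleted minus wild-type MEP was -0.21 with lane as a term and on lane 5 alone, -0.0023 with the length trend removed, and -0.21 to 0.49 with 1 library left out. For the effect in GMP minus that in MEP, P2rx7 was -0.30 and P2ry14 0.56 with a pseudocount of 0.1; with lane as a term P2rx4 was -0.024, P2ry2 -0.060 and P2ry14 0.0048; with 1 library left out P2rx4 ran from -0.13 to 0.38 and P2ry1 from -0.44 to 0.26. In XMP minus Runx1-deleted MEP, P2ry14 was -0.0038 with median scaling, and P2rx4 ran from -0.35 to 0.15 with 1 library left out.

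The replicate numbers are not stated to mark a shared animal or batch, and deviations of same-numbered libraries correlated at -0.475 to 0.782 between groups. With the replicate number as a block, P2rx1 in Runx1-deleted minus wild-type GMP was 1.22 (limma adjusted p = 0.0049), P2rx7 1.08 there (0.00591) and 0.89 in MEP (0.0144). Under the block, P2rx1 in XMP minus Runx1-deleted GMP (0.056) and P2ry1 in XMP minus Runx1-deleted MEP (0.0572) lost their calls and P2rx4 in wild-type GMP minus MEP (0.0493) gained one, and no other call changed. The labels also number the libraries in 1 run, of which the lower 5 and the higher 5 numbers each hold 1 library of every group. Libraries of the same set deviated together in all 6 pairs of groups without wild-type GMP (0.297 to 0.782) and not in the 4 pairs with it (-0.147 to 0.059). With the replicate block by library set, P2ry1 in XMP minus Runx1-deleted MEP lost its call (0.0592), P2rx4 in wild-type GMP minus MEP gained one (0.0459), and no other call changed.

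Over all genes the number called moved more than 1.5 times. It was 569 for Runx1-deleted minus wild-type GMP (64 to 1925 over the alternatives), 872 for MEP (340 to 3427), 190 for the difference of the effects (55 to 475), 2143 for XMP minus Runx1-deleted GMP (1200 to 3216), 844 for XMP minus Runx1-deleted MEP (305 to 1618), 2675 for Runx1-deleted GMP minus MEP (1579 to 3765) and 2352 for wild-type GMP minus MEP (1380 to 3422). The pathway lists had 162 calls over all comparisons, and 108 to 222 under the alternatives. Calls that follow from the filter, such as those of Gja1, Il1b and Entpd1, are among the 162. These totals describe the fit and support nothing about the lists.

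Depth left P2ry12 and P2ry13, with at most 2 and 5 reads in a library, and most P2ry10 and P2ry14 values outside GMP too low to compare. With 2 libraries in each group, a p that misses the threshold does not show that values did not differ. Libraries also differed in how level followed gene length: the median of the longest 25% of genes minus that of the shortest 25%, relative to the average library, ran from 0.22 to 0.46 in XMP, 0.19 to 0.27 in Runx1-deleted GMP, -0.34 to -0.28 in wild-type GMP, -0.002 to 0.26 in Runx1-deleted MEP and -0.86 to 0.13 in wild-type MEP, on the log2 scale. P2rx7, the longest member at 5393 bases, kept its calls with that trend removed.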

Other observations

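A630033H20Rik (P2ry10b) and P2ry10, which lie next to each other on the X chromosome by RefSeq, differed in which genotype had the higher values in GMP. A630033H20Rik had 0.521 and 0.307 RPKM in Runx1-deleted GMP (97 and 48 reads), against 0.0666 and 0.0990 in wild-type GMP (9 and 7 reads). P2ry10 had 0.464 and 0.506 RPKM in Runx1-deleted GMP (72 and 66 reads), against 0.604 and 0.950 in wild-type GMP (68 and 56 reads). For each gene the libraries of the 2 genotypes did not overlap, neither gene passed the filter, and the difference was not tested.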
